A study of Saccharomyces cerevisiae with 6 samples.

Results

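Rap1 binding sites that a later peak list no longer held were examined in Saccharomyces cerevisiae strain UKY403, in which histone H4 synthesis stops when cells leave galactose. A 0 h Rap1 ChIP-seq peak was called missing if it shared no base with any 2 h peak or with any 4 h peak. By this rule 205 of the 1212 peaks of the 0 h list were missing (16.9%), of 7723 peaks in the 3 lists together. Of these, 125 were absent from both later lists (10.3% of the 0 h list), 46 from the 2 h list alone and 34 from the 4 h list alone, so that 171 were absent at 2 h (14.1%) and 159 at 4 h (13.1%). Missing describes a list and not the loss of all binding: the 46 were listed again at 4 h. The other 1007 peaks overlapped a peak at both later times and are called retained.

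The cells of all 6 samples were grown in galactose, washed into dextrose and crosslinked with formaldehyde after 0, 2 or 4 h, with 2 cultures per time grown in independent time courses. The series title concerns binding inside genes that nucleosomes prevent, while the missing sites are 0 h calls that a later list lacks. The analysed values are 1 peak list per time, so there is no spread between replicates, and times were not compared by a test. The lists rested on 983197, 1483679 and 2327099 tags kept at 0, 2 and 4 h. The isogenic control strain UKY412 was not analysed here, so the change of sugar and the loss of H4 cannot be told apart in any value given.

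Rap1 is a general regulatory factor, an abundant DNA-binding protein that activates ribosomal protein and glycolytic genes and also binds telomere repeats and the silencers of the silent mating loci. Nucleosomes are the histone octamers around which DNA is wrapped, and H4 is a core part of each. Promoters in yeast usually hold a stretch with few nucleosomes, and tRNA genes, transcribed by RNA polymerase III, are likewise poor in nucleosomes. ChIP-seq without a control library can also show signal at open or heavily transcribed DNA.

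The membership follows from the presence of peaks in the lists, so the strength values that follow describe the missing peaks and are no test. Missing peaks were mostly weak at 0 h. Their fold enrichment, the authors' ratio of summit tag height to local background, had a median of 2.63 (lowest 1.35, highest 6.79, n = 205), against 7.11 for retained peaks (1.35 to 19.9, n = 1007). Their median summit height was 36 tags, against 109 tags, and their median length 194 bp, against 398 bp. Strength was similar in the 3 kinds of missing peak: peaks absent at both times had a median fold enrichment of 2.57, those absent at 2 h alone 2.63 and those absent at 4 h alone 2.77. Few had a fold enrichment above 3 (52 of 205) and 7 were above 4.

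**Figure D1:**
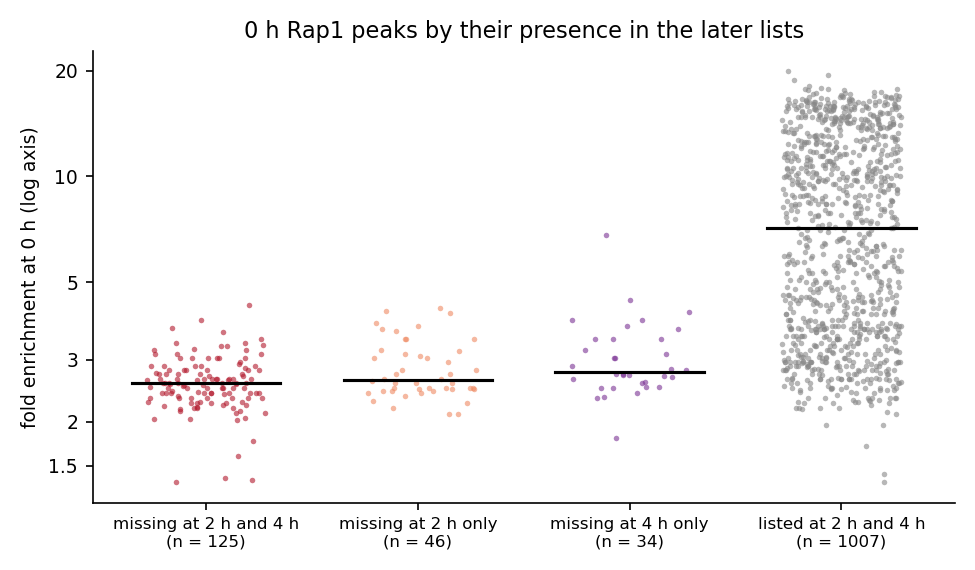
Fold enrichment at 0 h (log axis) of every 0 h peak, grouped by whether the later lists hold it; each point is a peak and the black line is the median. The 3 missing groups have medians of 2.57, 2.63 and 2.77, against 7.11 for the 1007 retained peaks, which reach 19.9.

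The share of peaks that were missing fell steeply with the strength of the call. Among peaks with a -log10 q under 5 at 0 h, 79 of 116 were missing (68.1%, 95% exact binomial interval 58.8 to 76.4%). The share was 41.7% (96 of 230) at 5 to 10, 14.7% (28 of 191) at 10 to 20 and 0.296% (2 of 675) at 20 or more. The 2 exceptions among strong peaks were the intergenic peak on chromosome VII with the highest fold enrichment of all missing peaks, and the peak upstream of GPG1. These intervals treat peaks as independent and cover counting error alone.

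The share missing was next counted by location. Summits were sorted into coding (in the span of a protein-coding gene), upstream (in no such span, and at most 500 bp from a start that lies downstream) and elsewhere (the rest). Of the missing peaks, 11 were coding (5.37%, interval 2.71 to 9.40%), 120 upstream (58.5%, 51.5 to 65.4%) and 74 elsewhere (36.1%, 29.5 to 43.1%). Of retained peaks 21.2% were coding (18.7 to 23.8%). Among peaks with a -log10 q of 5 to 10, 7 of 64 coding peaks were missing (10.9%, 4.51 to 21.2%), against 57 of 102 upstream peaks (55.9%, 45.7 to 65.7%) and 32 of 64 peaks elsewhere (50%, 37.2 to 62.8%). Below 5 the shares were 20% of 15 coding peaks (4.33 to 48.1%) and 74.2% of 62 upstream peaks (61.5 to 84.5%). At 10 to 20 they were 2.5% of 40 and 15.2% of 105, with overlapping intervals. No test was run, because the rule that picks the peaks uses the lists. Coding DNA became more densely covered by peaks: 1.15, 4.54 and 9.98% of coding bases lay in peaks at 0, 2 and 4 h, against 11.2, 11 and 12.8% of other bases. The part of this in the lower coding share was not tested. Coding summits made up 3 of the 125 peaks absent at both times (2.4%), 6 of the 46 absent at 2 h alone (13.0%) and 2 of the 34 absent at 4 h alone (5.88%).

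**Figure D2:**
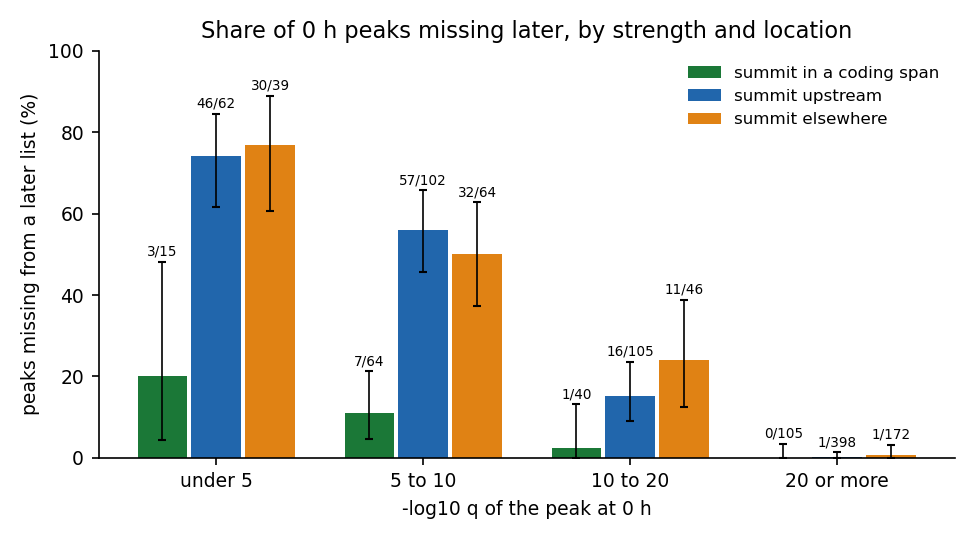
Percentage of 0 h peaks missing from a later list, by -log10 q at 0 h and location of the summit; bars are shares, whiskers 95% exact binomial intervals, and labels give missing over all peaks. At 5 to 10 the bars read 10.9% for coding, 55.9% for upstream and 50% for other summits, and at 20 or more just 2 of 675 peaks are missing.

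The rare coding members lay mostly near the ends of short reading frames. The highest was in PUS2, which encodes a tRNA pseudouridine synthase, with a fold enrichment of 3.75 at 0 h, no peak at 2 h and 3.42 at 4 h. Those in WAR1, encoding a transcription factor of weak acid resistance (2.50), and in CIN2, encoding a tubulin folding factor (2.42), were the 2 of 11 that lay at least 200 bp inside both ends. A member in HMRA1, at the silent mating locus HMR (2.44), was absent at 2 h alone. The others lay in TYC1, API2, YGR121W-A, YJR128W, YKL102C, YMR082C and YOR376W, with fold enrichments from 2.34 to 3.20. All of these but the one in YMR082C also lay within 500 bp upstream of another gene. In the same order these genes were MAL33, YDR524C-B, YGR122W, RSF2, APE1 and GDH1, so these summits cannot be assigned to the coding span alone.

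The arrangement of the flanking genes was also counted. Between convergent genes 18 of 50 peaks were missing (36%, 22.9 to 50.8%), against 104 of 489 between tandem genes (21.3%, 17.7 to 25.2%) and 71 of 417 between divergent genes (17.0%, 13.5 to 21.0%). Of the 18, 13 lay neither in the ribosomal DNA nor within 250 bp of a tRNA gene. Among peaks with a -log10 q under 10 the shares were 60.7% of 28, 65.2% of 132 and 57.5% of 106, and their intervals overlap.

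The median distance from the coding start was 239 bp for upstream members (n = 120) and 253 bp for retained upstream peaks (n = 547). The definition of upstream confines both to 500 bp, so these medians cannot show that the positions are alike. The highest member absent from both lists was an intergenic peak on chromosome X, 416630 to 416931, between RPC17 and NOP9, with a summit height of 54 tags and a fold enrichment of 4.29. The nearest tRNA gene, YNCJ0019C, was 768 bp from its summit. It was followed by a peak whose summit lay inside the tRNA gene SUP16 on chromosome XVI (49 tags, 3.90). Next came a peak upstream of DCW1, encoding a cell wall mannosidase (48 tags, 3.71), and a peak between MIN9 and SKA1, also within 500 bp upstream of the uridylate kinase gene URA6 (45 tags, 3.59).

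The other 6 of the 10 highest had lower values. The peak upstream of AHA1, encoding an Hsp90 co-chaperone, had a fold enrichment of 3.44. That on chromosome XII, 412553 to 412812, lay 266 bp past the end of the pyruvate decarboxylase gene PDC5 and within 500 bp upstream of no gene (3.36). A peak at 3.36 was shared by the divergent genes RIO1, encoding a protein kinase of ribosome maturation, and GCY1, a galactose-induced reductase gene. An intergenic peak 390 bp past the end of YCF1, encoding a vacuolar transporter, and also upstream of no gene by this window, had 3.30. The peak upstream of the phosphatidylserine synthase gene CHO1 and an intergenic peak 639 bp from the galactose permease gene GAL2 had 3.28 each. No value can be given for these 10 sites at 2 or 4 h, since a peak list holds none below its threshold.

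Absence could be bounded. At the genome-wide background, 11.8, 17.8 and 27.9 tags at 0, 2 and 4 h, the highest summit that would not reach the weakest listed p was 32 tags at 2 h, a fold enrichment of 1.75, and 45 tags at 4 h, a fold enrichment of 1.59. A site missing from a list and lying at this background had at most that enrichment there, or was narrower than 146 bp, the shortest length listed. Where the later local background was higher, no such bound can be given.

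Peaks held by a single later list mostly had a lower fold enrichment there than at 0 h. Among the 34 peaks absent at 4 h alone, median fold enrichment was 2.77 at 0 h and 2.36 at 2 h, and 31 of 34 were lower at 2 h. Among the 46 absent at 2 h alone it was 2.63 at 0 h and 2.24 at 4 h, with 35 of 46 lower. With the later summit within 100 bp of the 0 h summit, 26 of 27 and 30 of 32 were lower. Retained peaks with a -log10 q under 20, a summit outside coding spans and the same limit on distance were lower in 55.3% of 206 at 2 h and 58.7% of 196 at 4 h. These are values of separate libraries that share the 0 h list, and no test compares them. The rule itself favours this difference, since it picks peaks that another later list lacks and both later lists hold the retained ones. At 0 h the retained peaks also had higher medians, 3.23 and 3.27, against 3.05 and 2.77 for the missing peaks within 100 bp.

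**Figure D3:**
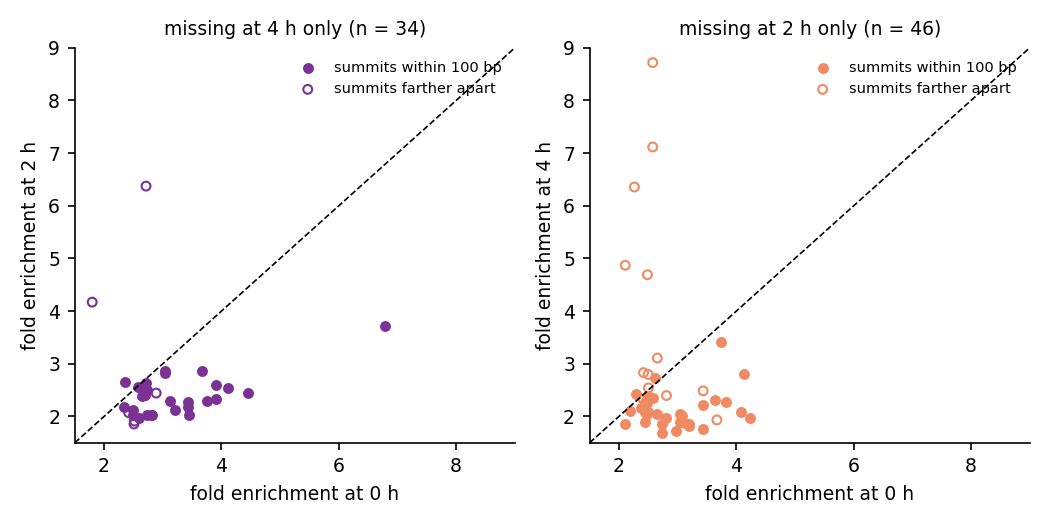
Fold enrichment at 0 h against fold enrichment in the later list that holds the peak, for peaks missing at 4 h only (left, n = 34) and at 2 h only (right, n = 46); the dashed line marks equal values. Filled points, with summits within 100 bp, lie below the line in 26 of 27 and 30 of 32 cases.

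The highest member of all was absent at 4 h alone. On chromosome VII, 412395 to 412724, between ALG13, encoding a subunit of an enzyme of N-glycosylation, and RIM8, its summit reached 86 tags at 0 h (fold enrichment 6.79) and 71 tags at 2 h (3.73), 3 bp apart. The tRNA gene YNCG0018C lies 195 bp from the summit. At 4 h the nearest peak was 1442 bp away, while the peak in TIF4632, which encodes a form of the translation factor eIF4G, stood at 81 tags at 2 h (4.15) and 188 tags at 4 h (5.76). Another peak of this stretch, between MST27 and TYW3, had 49 tags at 0 h (3.90), 43 at 2 h (2.34) and no call at 4 h.

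**Figure D4:**
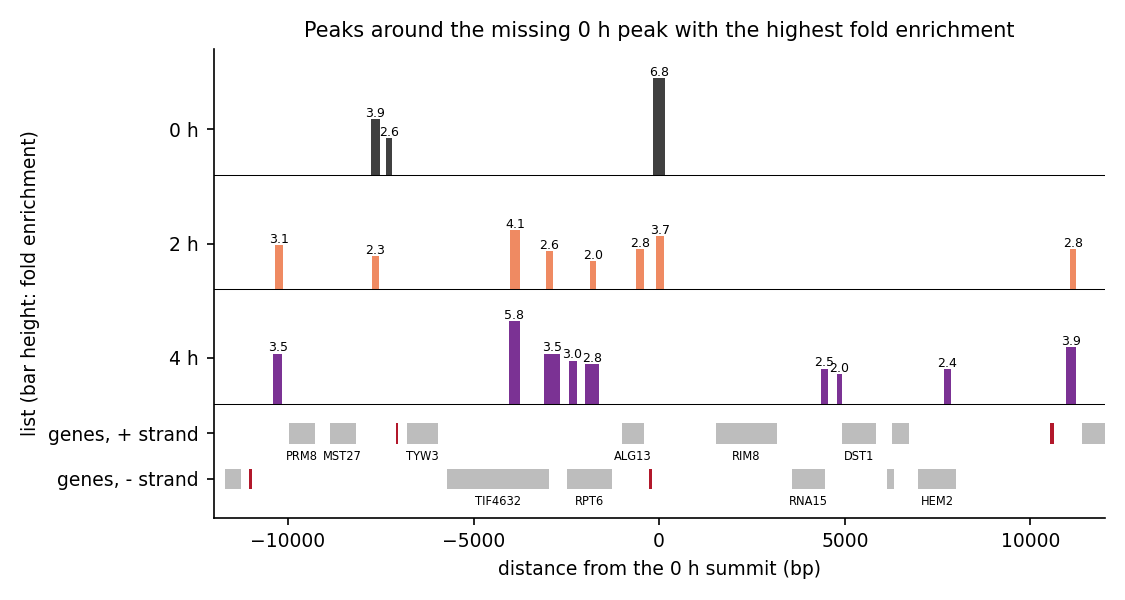
Peaks of the 3 lists around the summit of the missing peak with the highest fold enrichment, with bar heights and labels giving fold enrichment; grey boxes are protein-coding genes and red boxes tRNA genes. The central peak reads 6.8 at 0 h and 3.7 at 2 h and is absent at 4 h, where peaks inside genes to its left reach 5.8.

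The next 4 members absent at 4 h alone had the same order of values. The peak upstream of VPS3, encoding a subunit of a vacuolar tethering complex, had 56 tags at 0 h (4.45) and 45 tags at 2 h (2.44). Its interval missed the nearest 4 h peak by 20 bp, so it depends on where the caller drew an edge. The peak upstream of VAS1, the valyl-tRNA synthetase gene, had 57 tags (4.11) and then 47 (2.54), with the nearest 4 h peak 1426 bp away. The remaining peak of this group, near SNF6 on chromosome VIII, had 49 tags (3.90) and then 48 (2.60).

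The highest 5 members absent at 2 h alone were listed again at 4 h with lower enrichment. Upstream of GPG1, a gene linked to G protein signalling, the height was 81 tags at 0 h (4.23) and 80 tags at 4 h (1.98), in a library with 2.37 times the kept tags. Between MIN3 and RGM1 it was 52 tags (4.14) and 80 tags (2.80). Upstream of the glycerol kinase gene GUT1 it was 54 tags (4.09) and 67 tags (2.08). An intergenic peak near the subtelomeric gene COS9 had 48 tags (3.83) and 67 tags (2.27). The fifth, in PUS2, had 47 tags and 104 tags.

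A reappearing peak was not always the same site. In 10 of the 46 the 4 h summit lay over 200 bp from the 0 h summit. Near MDM32, the 0 h peak had a fold enrichment of 2.58 and the overlapping 4 h peak 8.72, with its summit 332 bp away. For the peak upstream of STE2, the receptor gene for alpha factor, the values were 2.58 and 7.12, with the summit 1138 bp away in a peak of 1212 bp.

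Missing peaks lay at widely varying distances from the later lists. The median distance to the nearest peak of the list that lacked them was 995 bp at 2 h (n = 171, 15 to 13559 bp) and 671 bp at 4 h (n = 159, 15 to 10098 bp). Within 200 bp lay 25 of 171 and 31 of 159. The members farthest from any later peak were on chromosome V, 99417 to 99601 (10098 bp away), on chromosome XVI beside the tRNA gene YNCP0008C (6393 bp), on chromosome XII near GAL2 (5806 bp), upstream of FRT1 (5664 bp) and upstream of SKA1 (5453 bp). Just inside the rule were peaks upstream of BGL2 and NOT5, 15 bp from a later peak, SDS23 (16 bp), VPS3 (20 bp) and ZRT2 (22 bp). Just outside it were peaks upstream of HSP31, which shared 21 bp with a 2 h peak, of ERG3 (27 bp at 4 h), of OLE1 (32 bp at 4 h), an intergenic peak on chromosome VIII (50 bp at 4 h) and one upstream of MET10 (59 bp at 2 h).

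**Figure D5:**
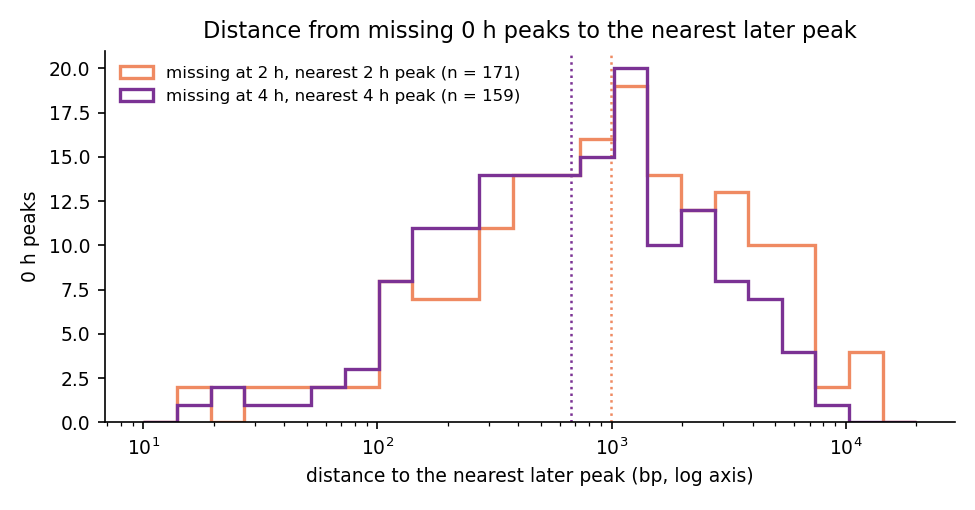
Number of missing 0 h peaks by distance to the nearest peak of the list that lacks them (log axis), for 171 peaks absent at 2 h and 159 absent at 4 h; dotted lines are medians, 995 and 671 bp. Within 200 bp lie 25 and 31 of them.

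Some missing peaks lay at tRNA genes. A tRNA gene lay within 250 bp of the summit in 16 of the 205 missing peaks (7.80%, interval 4.53 to 12.4%) and in 23 of 1007 retained peaks (2.28%, 1.45 to 3.41%). Of the 39 such 0 h peaks 41.0% were missing (25.6 to 57.9%), against 16.9% of all 0 h peaks. Summits inside a tRNA gene were missing in 9 of 13 cases. Strength moved with this: among peaks with a -log10 q under 10, 14 of 20 near a tRNA gene were missing (70.0%, 45.7 to 88.1%), against 50.6% of all 346, and the intervals overlap. Of the summits inside a tRNA gene, all 8 below this strength were missing (63.1 to 100%), while 1 of the 5 stronger ones was. The interval of all 346 was 45.2 to 56.0%, but the 8 are among them. No test compares them, since the rule uses the same lists. The missing summits inside tRNA genes lay in SUP16 (3.90), YNCK0010W (3.05), SUP53 (2.82), YNCF0009C (2.81), SUF8 (2.81), YNCD0008W (2.56), YNCJ0019C (2.50), YNCM0022C (2.36) and YNCO0011W (2.26). Of 275 tRNA genes, 38 had a summit within 250 bp in the 0 h list, 38 in the 2 h list and 32 in the 4 h list. The lists grew from 1212 to 4073 peaks, but bases outside coding spans were covered at 11.2, 11 and 12.8%. The peak at SUP53 is also upstream of LEU2, a leucine synthesis gene often used as a marker, and the labels do not say whether this strain carries LEU2 intact.

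The lowest 4 fold enrichments of all missing peaks lay in the ribosomal DNA of chromosome XII, 451575 to 467569, where the repeats are collapsed in the reference. Their summits reached 227 to 292 tags over a local background of 166 to 183 tags, which gave fold enrichments of 1.35 to 1.602. In this interval 9 peaks were listed at 0 h, 2 at 2 h and 2 at 4 h, the later ones with summits of 291 or 292 tags. With 1 tag kept per position and strand no summit can pass 292 tags. This limit leaves little room above such a background, so their absence later cannot be read as a change in binding.

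Ribosomal protein genes, the main targets of Rap1, held no missing peak. Of 137 genes, 112 had a 0 h summit in or within 500 bp upstream of the gene, and none of those summits was missing. Over all 0 h peaks just 2 of 675 with a -log10 q of 20 or more were missing. The strength of the summits at ribosomal protein genes was not compared, so this count does not set these genes apart from other strong peaks. With each later list shortened to 1212 peaks by -log10 q, 2 of the 137 genes had a missing summit, and with an upstream window of 1000 bp 1 did. Over all 6002 protein-coding genes, 1106 had such a summit and 167 (2.78% of all genes) had a missing one. No missing summit was found at the 2 histone genes with a 0 h summit (of 11), at the 4 such genes among 22 encoding Rap1 and its silencing and telomere partners or at the 2 such cyclin genes of 11. Counts this small do not set these lists apart from all genes. With shortened later lists 2 histone genes, 1 of the Rap1 partners and 2 cyclin genes had a missing summit, and with the 1000 bp window 2 cyclin genes did.

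Missing peaks touched from 1 to 4 members of each metabolic list. In the order below, 11, 9, 4, 10 and 5 members had a 0 h summit at all. Over all genes 167 of 1106 with such a summit had a missing one, 2.78% of all 6002 genes. Counts this small do not set the metabolic lists apart from all genes. Respiratory chain and tricarboxylic acid cycle genes had 4 of 51, namely IDH1 (2.44) and KGD1 (2.42), encoding subunits of cycle dehydrogenases, QCR9 (2.47), of complex III, and ATP18 (2.42), of the ATP synthase. Of 33 glucose-repressed carbon genes 2 had one: GUT1, given above, and ICL1, encoding isocitrate lyase of the glyoxylate cycle, with 54 tags at 0 h (3.44), 52 tags at 2 h (2.03) and no call at 4 h. The galactose list had GCY1, 1 of 10, and glycolysis TDH2, encoding glyceraldehyde-3-phosphate dehydrogenase (2.54), 1 of 21. Hexose transporter and glucose sensor genes had HXT11 (2.70), HXT17 (2.42) and STD1 (2.34), 3 of 22.

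In lists of protein synthesis and turnover the counts ran from 1 to 4. Members with a 0 h summit numbered 21 for amino acid synthesis, 3 for aminoacyl-tRNA synthetases, 10 for translation factors and 4 for ribosome biogenesis. They numbered 13 for chaperone and stress genes, 9 for mitochondrial ribosomal proteins and 2 for general regulatory factors. These counts too are small beside those of all genes. Proteasome genes had 3 of 32, or 3 of the 7 with a 0 h summit, against 167 of 1106 over all genes, at PRE7 (3.44), RPN6 (3.05) and PRE5 (2.50). Amino acid synthesis genes had 4 of 72, among them LEU2 (2.82), HIS5 (2.73) and GDH1 (2.70). The one before GDH1 is the coding member in YOR376W. Single members were VAS1 among 19 aminoacyl-tRNA synthetase genes, EFT2, encoding elongation factor 2 (2.73), among 21 translation factor genes, UTP20 (2.81) among 42 ribosome biogenesis genes and GSY1, encoding glycogen synthase (2.11), among 38 chaperone and stress genes. Mitochondrial ribosomal protein genes had MRPL16 (2.81) and MRPL28 (2.65), 2 of 67, and the 6 general regulatory factor genes had TBF1 (2.26). MRPL16, IDH1, RPN6, PRE5, ATP18 and MRPL28 share their peak with a divergent neighbour, and the lists do not show to which of the pair it belongs.

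New peaks in coding spans were counted in genes with and without a missing upstream peak. New means a summit of a later peak that shares no base with a 0 h peak. Of the 154 genes with missing and no retained upstream summits, 44 had one at 2 h (28.6%, interval 21.6 to 36.4%) and 64 at 4 h (41.6%, 33.7 to 49.8%). Of 739 genes with a retained upstream summit the shares were 20.3% (17.5 to 23.4%) and 36.3% (32.8 to 39.8%), and of 5109 genes with none 16.8% (15.8 to 17.8%) and 33.7% (32.4 to 35.02%). These intervals count genes as independent, though 29 missing peaks lie within 500 bp upstream of 2 genes or more, so that neighbours share a peak. They are no test of a difference between the groups, and those of the first and last group overlap at 4 h. A later peak that touches a retained peak is not new, while none touches a missing peak in the list that lacks it. The rule itself thus favours new peaks in the first group over the second, and the size of this was not tested. Median coding length was 1326, 1080 and 1215 bp in these groups, and the part of length in the difference was not tested.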

How the data were processed

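Rap1 ChIP-seq libraries of strain UKY403 at 0, 2 and 4 h were analysed from 1 peak list per time, and the headers do not say whether a list pools both replicates. The submitters' processing notes name Bowtie, SAMtools, MACS2 and the build sacCer3. Per the file headers, MACS2 2.0.10.20130712 was run without control, with a q cutoff of 0.05, a regional background over 10000 bp and 1 tag kept per position and strand. The deposited signal is the tag height at the summit, not scaled for depth. The deposited fold enrichment is a ratio to background within a library. The -log10 p and -log10 q values are those of the authors' caller.

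Genes came from the RefSeq table of assembly R64, the same assembly as sacCer3. Strands follow the W or C of each systematic name. Overlaps, locations and exact binomial intervals were computed in Python 3.11.15 with scipy 1.17.1, and the functions were tested on simulated data. No test compares groups. Members and gene lists were chosen with earlier results of these data known. Named peaks are the highest 10 absent from both lists, the highest 5 absent from each list alone, the lowest, the farthest, those nearest the rule's edge, all coding ones and all list members, of which 1 is not reported here. The planned motif search was not run, since no sequence was used here.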

Additional observations from a re-analysis of the deposited data

How the results depend on the processing

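The count of 205 missing peaks and the 125 absent from both lists stayed within 1.5 times under the other overlap rules, a later -log10 q of at least 5 and the removal of chromosome ends. With 0 h peaks of -log10 q of at least 5, they were 126 and 69, with 16 gene list members in place of 25. With each later list shortened to 1212 peaks by -log10 q, they were 545 and 396, with a coding share of 10.1% and 67 list members; fewer later peaks are left to overlap by construction. A scaling of 0 h peaks to the later depth at unchanged fold enrichment, in which all 205 would be listed, shows nothing about loss: deeper lists with looser thresholds fix that outcome. The 205 include 4 peaks, all in the ribosomal DNA, whose scaled height passes the limit of 292 tags and could not occur. The scaling gave 126 of 126 at a 0 h -log10 q of at least 5, 222 of 232 at a later one of at least 5 and 142 of 545 with shortened lists. With an upstream window of 250 bp, upstream and other shares were 33.2 and 61.5%, with 9 list members. With 1000 bp they were 74.6 and 20%. Requiring 200 bp inside both ends gave coding shares of 0.976% in all and 0% at -log10 q of 5 to 10. A tRNA window of 1000 bp gave 14.1%. No paired analysis was possible because each time has 1 list; no replicate could be left out either, and the planned motif alternatives were not run. Weak peaks are limited by depth: calls at 0 h rest on as few as 26 tags.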
